A study of Mus musculus with 8 samples.

Results

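The transcripts described here are Egf, the gene of epidermal growth factor, and Gm24515 and Gm42650, which are annotated inside it. They are 3 of the 34450 gene rows in the table. Each was found by its symbol, and they were chosen by their FPKM in the hypoxia and normoxia libraries compared below. FPKM, the number of fragments of a gene divided by its length in kilobases and by the library's depth, is the unit throughout. The levels of the 3 transcripts are therefore a description and carry no test. All kidneys were from C57BL/6J mice aged 8 weeks and were taken at day 3 after ischaemia-reperfusion injury (IRI), in which the blood supply of the kidney is stopped and restored. In 4 libraries the mice had been exposed to hypoxia before the injury, and in the other 4 to normoxia. The groups are called hypoxia and normoxia, and the libraries keep the numbers of their titles, 1 to 4 and 5 to 8. The degree and length of the hypoxia are not given in the labels, and every kidney was injured. The labels do not say whether libraries of a group came from separate animals. If they did not, the p-values below describe technical variation alone.

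Epidermal growth factor is made as a long membrane-anchored precursor from which the short growth factor is cut. In the kidney the precursor is made in the thick ascending limb, a salt-reabsorbing and water-tight segment, and in the distal convoluted tubule, and much of the product leaves in the urine. It acts through the receptor EGFR, a tyrosine kinase of the ErbB family that it shares with other ligands. It is known as a mitogen for tubule cells and as a stimulus of the magnesium channel TRPM6 in the distal convoluted tubule.

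On GRCm38, in the GENCODE M21 annotation, Egf (ENSMUSG00000028017) lies on the minus strand at chr3:129677565-129755316. Its full-length coding transcript, Egf-201, has 24 exons and 4761 bases, and the gene has 9 annotated transcripts, of which 3 are protein-coding. The table gives a single value for them all. Gm24515 (ENSMUSG00000092701), annotated as a miRNA, lies on the same strand at chr3:129684133-129684241, within intron 21 of Egf-201. Gm42650 (ENSMUSG00000105596), annotated as an antisense RNA, lies on the opposite strand at chr3:129745340-129750168, within intron 1. Its 2 exons total 575 bases and share none with an exon of Egf. A pair of further antisense RNAs overlaps Egf and is described with the neighbouring genes. Gm42697 (ENSMUSG00000106120, chr3:129728845-129740188) covers exons 2, 3 and 4 of Egf-201 with 607 bases, which are 14.8% of its exon length. 6330410L21Rik (ENSMUSG00000105960, chr3:129753758-129763884) covers exon 1 with 500 bases, 12.9% of its exon length. The library kit marks strand, but whether the authors' counting used it is not given in the sources used here. Reads of Egf and of its antisense partners therefore cannot be told apart with certainty.

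**Figure D1:**
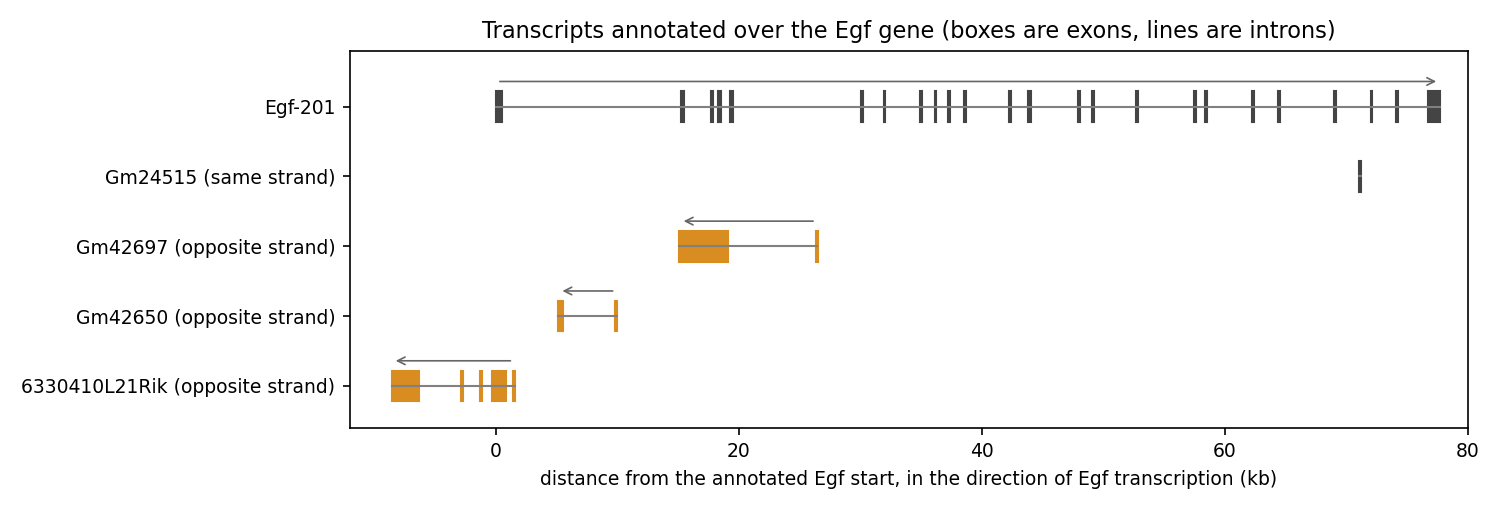
Exons (boxes) and introns (lines) of Egf-201 and of 4 transcripts annotated over it, by distance in kb from the start of Egf, with arrows for the direction of transcription. Gm24515 and Gm42650 lie wholly in introns 21 and 1 of Egf-201, while Gm42697 and 6330410L21Rik cover exons of it.

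The sequence of Gm24515, from the GENCODE M21 transcripts, is shown because it bears on how its row can be read. It is a run of short repeats, with the word TACA, in capitals, present 18 times and filling 72 of its 109 bases (66.1%). Whether fragments of other copies of such a repeat were placed here was not tested, and the values of the row are uncertain for that reason. Gm24515 also lies within an intron of Egf-201 on the same strand. Its fragments therefore cannot be told apart from those of unspliced Egf RNA, even with counting by strand. For Gm42650, in an intron on the opposite strand, the same holds unless the counting used strand.

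Gm24515: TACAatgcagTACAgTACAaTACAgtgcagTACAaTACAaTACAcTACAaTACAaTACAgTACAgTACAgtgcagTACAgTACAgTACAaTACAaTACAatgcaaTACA

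The 250 bases before the annotated starts of Egf are shown because the transcripts of the locus were high in the same group of libraries. They are from RefSeq on GRCm38.p6, which matched Egf and gives it a start for the full-length transcript (chr3:129755323-129755572 upstream, minus strand) and an internal one (chr3:129725087-129725336 upstream, minus strand). Capitals mark matches to any of 6 short motifs searched on both strands, of which none overlapped another.

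Egf full-length start: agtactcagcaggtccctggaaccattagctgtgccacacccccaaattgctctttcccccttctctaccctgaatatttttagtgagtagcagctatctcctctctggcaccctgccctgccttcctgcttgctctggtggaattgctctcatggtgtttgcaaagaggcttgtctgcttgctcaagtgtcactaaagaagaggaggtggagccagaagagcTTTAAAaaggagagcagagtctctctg

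Egf internal start: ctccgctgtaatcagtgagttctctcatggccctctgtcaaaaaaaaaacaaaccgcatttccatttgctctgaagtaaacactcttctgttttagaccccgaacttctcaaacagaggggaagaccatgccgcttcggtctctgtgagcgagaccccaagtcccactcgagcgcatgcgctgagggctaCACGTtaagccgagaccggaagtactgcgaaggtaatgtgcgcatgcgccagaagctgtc

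The full-length window held TTTAAA, its first base 27 bases before the start, a word present in 12.1% of 32851 mouse windows of this length. It held neither hypoxia response core, ACGTG (in 16.6% of windows) or GCGTG (28.2%), nor TATAAA (12.4%), GTTAAT, part of the HNF1 site (6.43%), or AAGGTCA, the site of estrogen-related receptors (4.08%). The internal window held 1 ACGTG, read on the other strand as CACGT from 60 bases before the start, and none of the remaining motifs. These are matches of letters in short windows, and nothing follows from them about the binding of a factor.

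Egf was high in every hypoxia library and low in every normoxia library. It was 33.0, 142.4, 42.3 and 45.9 FPKM in hypoxia libraries 1 to 4. In normoxia libraries 5 to 8 it was 1.39, 4.79, 3.60 and 2.04 FPKM. The groups did not overlap, and as deposited library 2 stood well above the other hypoxia libraries. Means were 65.9 ± 51.3 and 2.96 ± 1.54 FPKM (SD, n = 4 each). The difference of the mean log2(FPKM + 0.5) was 4.12 ± 0.69 (SE, from the fit over all genes), and it was 4.26 above the median of all tested genes. Without library 2 it was 3.67.

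The position of Egf among other genes, which does not depend on scaling between libraries, moved in the same way. Of the 14444 genes with a mean of at least 0.5 FPKM, Egf was above 95.0%, 98.8%, 98.7% and 98.8% in hypoxia libraries 1 to 4. It was above 42.7%, 75.3%, 43.9% and 56.8% in normoxia libraries 5 to 8. Its position was thus higher in every hypoxia library than in any normoxia library, of which library 6 was the highest. Scaling by TMM aligns libraries on the bulk of their genes. With it Egf was 27.3, 104.5, 64.4 and 67.8 in hypoxia libraries 1 to 4. In normoxia libraries 5 to 8 it was then 1.52, 4.77, 1.96 and 2.52. After scaling to a common sum over protein-coding genes it was 24.8, 78.1, 57.0 and 65.7 in hypoxia libraries 1 to 4. In normoxia libraries 5 to 8 it was then 0.625, 7.32, 2.76 and 4.87. In both scalings library 2 stayed the highest hypoxia library, but nearer to libraries 3 and 4 than as deposited.

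Gm24515 was listed at 2.05, 2.57, 3.57 and 9.53 FPKM in hypoxia libraries 1 to 4. It was listed at 0 in all 4 normoxia libraries. Gm42650 was 2.17, 1.35, 1.90 and 3.30 FPKM in hypoxia libraries 1 to 4, and again at 0 in all 4 normoxia libraries. The hypoxia means were 4.43 ± 3.46 and 2.18 ± 0.82 FPKM (SD, n = 4), and no fold is given against groups listed at 0. The groups did not overlap for any of the 3 transcripts. Among all tested genes 1.86% had every hypoxia library above every normoxia library, and 3.06% the reverse. Nothing is read from that comparison, because these values were used in choosing the transcripts. All 3 passed the filter on mean FPKM, Gm24515 and Gm42650 only through the hypoxia libraries.

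**Figure D2:**
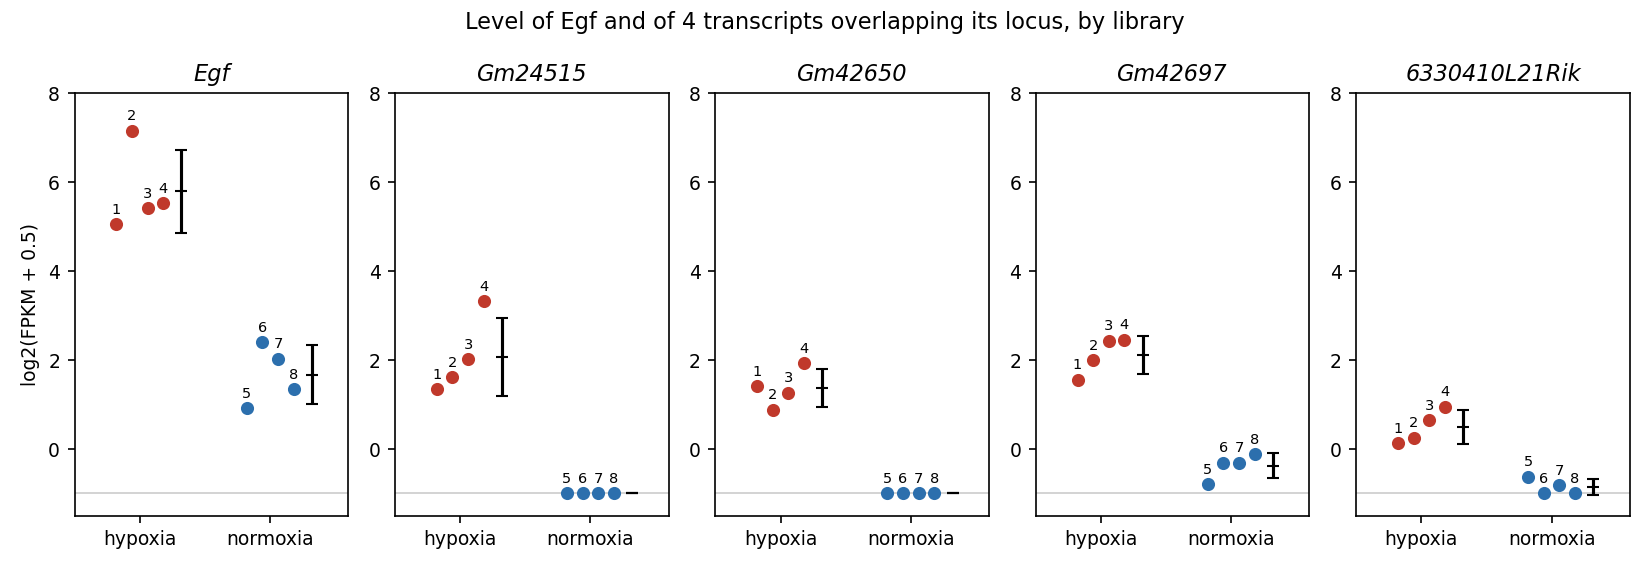
Levels as log2(FPKM + 0.5) of Egf and 4 transcripts over its locus in the 4 hypoxia and 4 normoxia libraries (points, numbered by library), with the mean and SD as bars and a grey line at the value of a gene listed at 0. The groups do not overlap in any panel, and Gm24515 and Gm42650 lie at 0 FPKM in all 4 normoxia libraries.

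The rows of Gm24515 and Gm42650 rested on few fragments. Read counts were not used here, and libraries held roughly 8510000 to 14800000 fragments, judged from the spacing of their lowest FPKM. At that depth Egf corresponds to about 1720 to 9350 fragments in the hypoxia and 86.3 to 254 in the normoxia libraries. Gm24515 corresponds to about 2.71 to 9.23 fragments in the hypoxia libraries, and Gm42650 to about 9.30 to 16.9. These numbers are approximations without an interval.

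Set against Egf in the same library, Gm24515 was 6.22%, 1.81%, 8.43% and 20.8% of the Egf FPKM in hypoxia libraries 1 to 4. Gm42650 was 6.58%, 0.948%, 4.49% and 7.19% of it. At the median of those shares, 7.33% and 5.54%, the normoxia libraries would have held 0.145 to 0.426 fragments of Gm24515 and 0.577 to 1.70 of Gm42650. Over the 4 libraries these come to about 1.08 fragments of Gm24515 and 4.31 of Gm42650, against none listed. For Gm24515 a loss beyond that of Egf was not detectable at this depth. For Gm42650 it was not detectable in any single library, and over the 4 together it was not tested, since the fragment numbers are approximate.

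Within the hypoxia group the 3 transcripts did not rank the libraries alike. Egf was highest in library 2, where Gm42650 was lowest and Gm24515 was second lowest. Both small transcripts were highest in library 4. After TMM scaling Gm24515 was 1.70, 1.89, 5.43 and 14.1 and Gm42650 was 1.80, 0.991, 2.89 and 4.87 in libraries 1 to 4, so that both were higher in libraries 3 and 4 than in 1 and 2. The estimated share of fragments from ribosomal RNA, nuclear and mitochondrial, was 40.95% and 21.55% in libraries 1 and 2 and 66.3% and 67.4% in libraries 3 and 4. Its part in these values was not tested. In the normoxia libraries the share ran from 13.55% in library 5 to 72.5% in library 8. As deposited, Egf was lowest in library 5 and next lowest in library 8. After TMM scaling it was lowest in library 5 (1.52) and next lowest in library 7 (1.96), with 2.52 in library 8. With a common sum over protein-coding genes library 7 was again next lowest (2.76, against 4.87 in library 8).

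Of the genes around Egf, 1 antisense transcript passed the test, and it was tested only because it was high in the hypoxia libraries. The table held 31 other rows within 1 Mb of Egf, of which 15 were tested with limma on log2(FPKM + 0.5). With a Benjamini-Hochberg adjusted p under 0.05, 1 rose and none fell, where 0.305% of all tested genes rose and 0.602% fell. An unadjusted p under 0.05 was found for 5, and the share of all tested genes at that threshold is not given here. Of these, Gm42697, 6330410L21Rik and Etnppl had positive and Gar1 and Mcub negative differences. Those with positive differences passed the filter only through the hypoxia libraries. The median difference of the 15 was 0.19, against -0.14 over all tested genes. The row that rose at the adjusted threshold was Gm42697, with 0.08, 0.31, 0.31 and 0.42 FPKM in normoxia libraries 5 to 8 and 2.44, 3.5, 4.93 and 4.99 FPKM in hypoxia libraries 1 to 4. The log2 difference was 2.49 ± 0.43 (SE, limma adjusted p = 0.00408), and it had an adjusted p of 0.0543 after scaling to a common sum over protein-coding genes. It passed the filter only through the hypoxia libraries, so a difference was built into its being tested, and its p is no independent support.

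Gm42697 was 7.40%, 2.46%, 11.7% and 10.9% of the Egf FPKM in hypoxia libraries 1 to 4 and 5.76%, 6.47%, 8.61% and 20.6% in normoxia libraries 5 to 8. These ranges overlapped. Because it covers Egf exons, its level cannot be told apart from fragments of Egf itself unless the counting used strand. 6330410L21Rik, which starts within Egf and runs away from it, was 0.59, 0.69, 1.07 and 1.44 FPKM in hypoxia libraries 1 to 4. It was 0.15, 0, 0.07 and 0 FPKM in normoxia libraries 5 to 8. The groups did not overlap, and the difference did not pass (log2 difference 1.35, limma adjusted p = 0.0851). It did with TMM scaling without normoxia library 5 (adjusted p = 0.04), where 4.38% of all tested genes were higher. 6330410L21Rik, too, passed the filter only through the hypoxia libraries, so its p is no independent support.

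The next genes outward did not pass as deposited. Elovl6, a fatty acid elongase gene and the nearest coding gene beyond the Egf 3′ end, was 1.08 to 2.56 FPKM after hypoxia and 0.79 to 3.58 FPKM after normoxia (log2 difference 0.26, limma adjusted p = 0.999). Enpep, the gene of the brush-border aminopeptidase A, had a log2 difference of 0.19 (limma adjusted p = 0.999). On the side of the Egf start, Lrit3 and Rrh were at most 0.27 FPKM and were not tested. Gar1, which encodes a protein of small nucleolar particles, was 1.26 to 3.81 FPKM after hypoxia and 3.11 to 13.8 FPKM after normoxia (log2 difference -1.24, limma adjusted p = 0.476), and it passed with quantile normalization (-1.07, adjusted p = 0.0401). The complement factor I gene Cfi (-0.15) and the phospholipase gene Pla2g12a (0.30) both had an adjusted p of 0.999 in limma.

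None of the tested ligands and receptors of the family passed the test. Of 14 listed ligands and ErbB receptors 12 were in the table and 7 were tested. In limma 0 were higher and 0 lower, and 0 had an unadjusted p under 0.05. Their median difference was -0.07 as deposited and 0.14 with TMM scaling, so its sign depended on the scaling. Egfr, the receptor of Egf, was 3.14 to 4.34 FPKM after hypoxia and 3.32 to 5.28 FPKM after normoxia (log2 difference -0.21 ± 0.52, SE, limma adjusted p = 0.999). The 2 tested members with the smallest p were the neuregulin gene Nrg1 (-0.84, limma adjusted p = 0.571) and the neuregulin receptor gene Erbb4 (0.37, 0.953). A p above the threshold does not show that these levels were alike. Btc, the gene of betacellulin, a ligand of EGFR and ErbB4, was below the filter and not tested. It was 0.94, 0.91, 0.57 and 0.58 FPKM in hypoxia libraries 1 to 4 and 0.13, 0.08, 0.37 and 0.10 FPKM in normoxia libraries 5 to 8, and it is named after its values were seen. The other untested ligands in the table did not share this pattern. Mean FPKM after hypoxia and normoxia was 0.13 and 0.45 for Areg and 0.005 and 0.15 for Ereg. It was 0.0125 and 0.03 for Nrg2 and 0.17 and 0.16 for Nrg4, and the groups overlapped for each of these ligands.

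Genes that release the ligands or carry the receptor signal did not pass either. Of 25 listed genes 24 were tested, with 0 higher, 0 lower and 0 at an unadjusted p under 0.05 in limma, and a median difference of -0.02, or 0.18 with TMM scaling. The list held sheddases, adaptors, kinases of the ERK cascade and feedback inhibitors. The members with the smallest p were both rhomboid genes. Rhbdf2, an inactive rhomboid needed for sheddase maturation, had a log2 difference of -0.97 (limma adjusted p = 0.618), and Rhbdl2, a rhomboid protease, one of -0.54 (0.847). With TMM scaling without normoxia library 5, Rhbdf2 was lower (-1.08, adjusted p = 0.0468), where 4.15% of all tested genes were.

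In the list of distal magnesium handling, none of 10 tested genes was higher or lower as deposited, and 1 had an unadjusted p under 0.05. The share of all tested genes at that unadjusted threshold is not given here. Trpm6, the channel that epidermal growth factor stimulates, was 1.08, 1.98, 0.92 and 1.02 FPKM in hypoxia libraries 1 to 4 and 0.66, 0.51, 0.95 and 0.69 FPKM in normoxia libraries 5 to 8. The groups overlapped, and the log2 difference was 0.52 ± 0.40 (SE, limma adjusted p = 0.864). Kcnj10, a basolateral potassium channel gene of the distal tubule, was 5.19 to 10.1 FPKM after hypoxia and 1.89 to 4.87 FPKM after normoxia. Its log2 difference of 1.18 did not pass as deposited (limma adjusted p = 0.485) and did with TMM scaling (1.39, adjusted p = 0.0322).

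**Figure D3:**
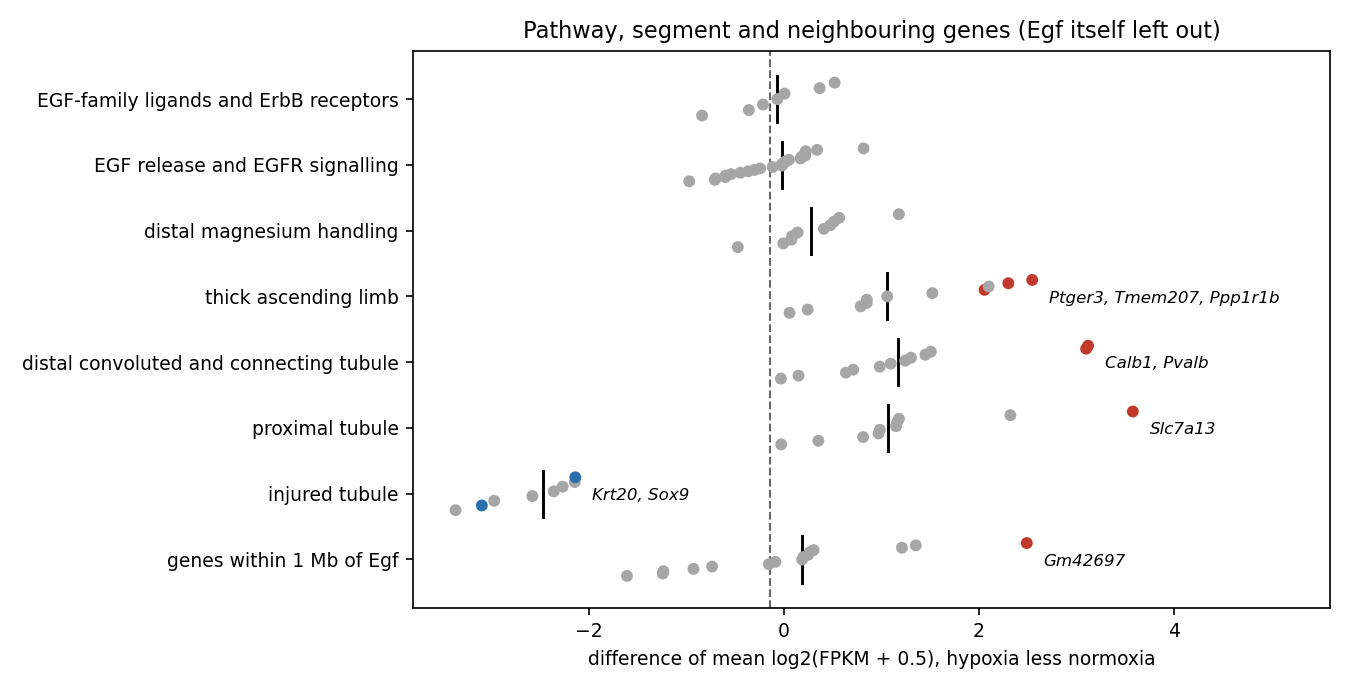
Differences of mean log2(FPKM + 0.5), hypoxia less normoxia, of the tested genes of 8 lists (points), with list medians as black bars and the median of all tested genes as a dashed line. Red genes were higher and blue genes lower at an adjusted p under 0.05, and all of these are named.

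Some markers of the segments that make Egf passed the test. Of 11 genes of the thick ascending limb 3 were higher and none lower as deposited, where 0.305% of all tested genes were higher and 0.602% lower. All 11 had a positive difference as deposited, against 39% of all tested genes, and their median was 1.06. Tmem207, a membrane protein gene of this segment, was 2.80, 4.83, 2.54 and 1.87 FPKM in hypoxia libraries 1 to 4 and 0.13, 0.15, 0.29 and 0.16 FPKM in normoxia libraries 5 to 8 (log2 difference 2.30 ± 0.41, SE, limma adjusted p = 0.00652). It passed the filter only through the hypoxia libraries, so its p is no independent support. The others were the prostaglandin receptor gene Ptger3 (2.06 ± 0.44, 0.0226) and the phosphatase inhibitor gene Ppp1r1b (2.55 ± 0.54, 0.0221). Without normoxia library 7 only Tmem207 passed (adjusted p = 0.0618 for the other two). Ptger3 did not pass without hypoxia library 2 (0.0536), nor Ppp1r1b without normoxia library 8 (0.0539). With TMM scaling 6 were higher and none lower, where 1.18% of all tested genes were higher and 1.2% lower. The median of the 11 was then 1.28, and 52.4% of all tested genes had a positive difference, so that background depends on the scaling.

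The abundant genes Umod and Slc12a1 of the segment had smaller differences than Egf. Because Egf was chosen by its levels in these groups, nothing is read from that comparison. Umod, which encodes uromodulin, was 610.8, 1436, 275.2 and 310.4 FPKM in hypoxia libraries 1 to 4 and 385.1, 313.7, 486.9 and 120.2 FPKM in normoxia libraries 5 to 8. The groups overlapped (log2 difference 0.85, limma adjusted p = 0.924). Slc12a1, the sodium-potassium-chloride cotransporter gene, was 60.3 to 139.0 FPKM after hypoxia and 7.96 to 33.8 FPKM after normoxia without overlap. It did not pass as deposited (2.10, limma adjusted p = 0.268) and did with TMM scaling (2.32, adjusted p = 0.0319).

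Of 12 genes of the distal convoluted and connecting tubule 2 were higher and none lower, against the same 0.305% and 0.602% of all tested genes. Of the 12, 11 had a positive difference as deposited, against 39% of all tested genes, and the median was 1.17. Calb1, which encodes the calcium buffer calbindin, was 15.6 to 37.0 FPKM after hypoxia and 0.92 to 4.53 FPKM after normoxia (log2 difference 3.10 ± 0.64, SE, limma adjusted p = 0.0198). Without normoxia library 7 it did not pass (adjusted p = 0.0663). Pvalb, the gene of parvalbumin, was 4.89 to 6.88 FPKM after hypoxia, 1.42 FPKM in normoxia library 5 and listed at 0 in normoxia libraries 6, 7 and 8 (limma adjusted p = 0.00289). Pvalb, too, passed the filter only through the hypoxia libraries. Slc12a3, the thiazide-sensitive cotransporter gene, was 28.1 to 51.2 and 10.3 to 25.2 FPKM and did not pass (1.24, limma adjusted p = 0.678). It passed with quantile normalization (0.0297) and with TMM scaling without normoxia library 5 (0.00948), but not with TMM scaling of all libraries (0.0548). With TMM scaling without normoxia library 5, 8 of the 12 were higher, where 4.38% of all tested genes were. Positive differences were not particular to the segments that make Egf. Of 10 tested proximal tubule markers 9 had a positive difference, and their median was 1.07. Of 6 principal cell markers 5 had a positive difference, and their median was 0.93. The medians of endothelium (0.58) and intercalated cells (0.20) were smaller, and that of podocytes was -0.21. In whole kidney, fewer cells of a segment and less RNA per cell cannot be told apart.

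Egf was also higher in the hypoxia libraries relative to most, but not all, genes of its own segments. Of the 23 genes in both lists, the ratio of Egf to the gene was higher in every hypoxia library than in any normoxia library for 18 and overlapped for 4, and 1, Pvalb, had libraries at 0. Egf FPKM was 5.40%, 9.91%, 15.4% and 14.8% of Umod FPKM in hypoxia libraries 1 to 4, and 0.361%, 1.53%, 0.739% and 1.70% in normoxia libraries 5 to 8. Relative to Slc12a1 it was 40.9% to 102.5% after hypoxia and 10.6% to 17.5% after normoxia. Relative to the potassium channel gene Kcnj1 it was 105.9% to 373.5% and 18.1% to 57.4%, and relative to Slc12a3 84.4% to 278% and 7.67% to 46.7%. In all of these ratios the groups were apart. They were apart also for Ptger3, at 732.7% to 2743% and 252.7% to 684.3%. The groups overlapped for the other called genes, Calb1 (89.2% to 416.2% and 33.6% to 305.1%), Ppp1r1b (355.7% to 1059% and 98.6% to 1020%) and Tmem207 (1178% to 2948% and 1069% to 3193%), and for S100g, the gene of a calcium-binding protein. These ratios are free of scaling between libraries, but they hold the Egf values for which the gene was chosen and were not tested. The share of all tested genes with such ratios apart is not given here. Nothing particular to these segments is therefore read from 18 of 23.

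**Figure D4:**
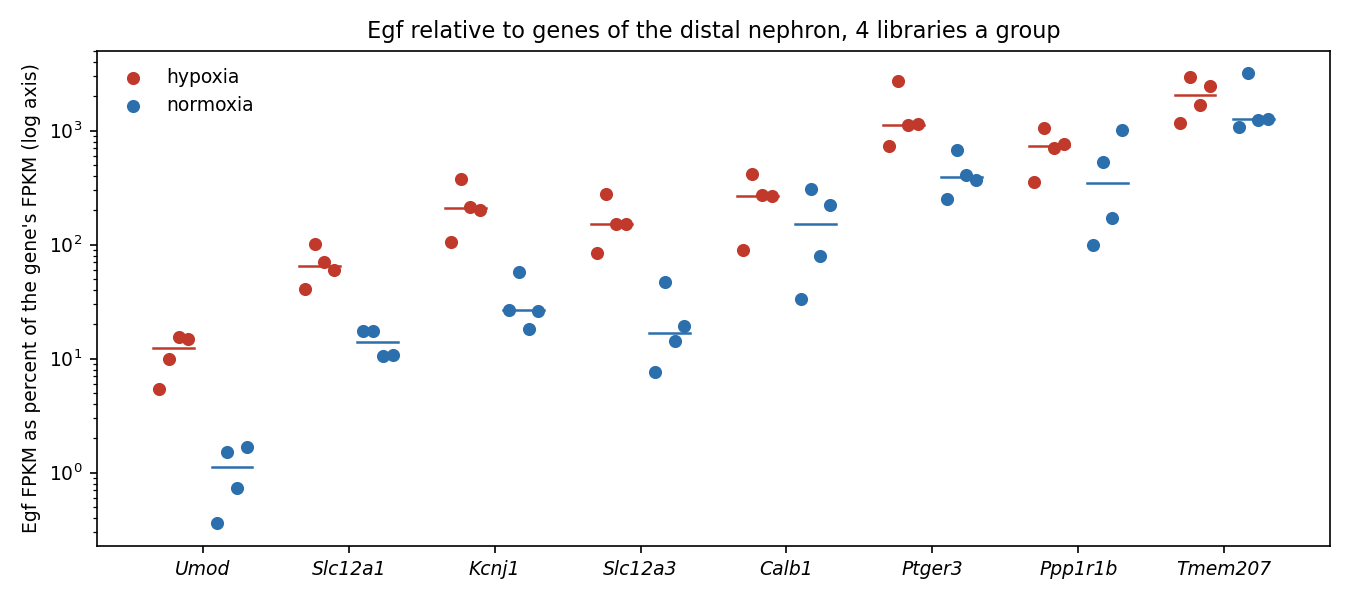
Egf FPKM as a percent of the FPKM of 8 distal nephron genes in each of the 4 hypoxia (red) and 4 normoxia (blue) libraries, with medians as lines and a log axis. The groups are apart for Umod, Slc12a1, Kcnj1, Slc12a3 and Ptger3 and overlap for Calb1, Ppp1r1b and Tmem207.

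A few markers of other cells passed the test as deposited, where 0.305% of all tested genes were higher and 0.602% lower. Of 10 proximal tubule markers 1 was higher, the amino acid transporter gene Slc7a13 (log2 difference 3.58, limma adjusted p = 0.0279, 0.0542 with TMM scaling and 0.248 without normoxia library 7). Of 8 markers of injured tubule 2 were lower. None of the 8 had a positive difference as deposited, against 39% of all tested genes, and their median was -2.47. The 2 were the keratin gene Krt20 (-3.10, limma adjusted p = 0.0385) and the transcription factor gene Sox9 (-2.14, 0.0221), and neither passed without normoxia library 7 (0.281 and 0.121). Krt20 also did not pass without hypoxia library 3 (0.08), hypoxia library 4 (0.106) or normoxia library 5 (0.104), nor with a pseudocount of 1 (0.0574). Neither passed with a common sum over protein-coding genes (0.0507 and 0.0639) or with untrended variance (0.129 and 0.0943). Sox9 passed the filter only through the normoxia libraries. The summed FPKM of the 8 was 47.3 to 293 after hypoxia and 408.6 to 1644 after normoxia, and none was at 0 in all libraries. Havcr1, which encodes kidney injury molecule 1, was 4.27 to 101.7 and 74.8 to 467.9 FPKM, with overlap, and did not pass (limma adjusted p = 0.0855). Havcr1 passed with a filter of 2 FPKM (0.0393), without hypoxia library 1 (0.0141) and without normoxia library 8 (0.0472). It also passed with TMM scaling without normoxia library 5 (0.03), but not with TMM scaling of all libraries (0.0668). None of the markers of principal cells (6), intercalated cells (5), endothelium (6), leukocytes (5), fibroblasts and pericytes (5) or podocytes (4) passed in limma as deposited, where 2, 1, 0, 3, 4 and 0 had an unadjusted p under 0.05. The share of all tested genes at that unadjusted threshold is not given here. Among the leukocyte genes below it, Itgam passed the filter only through the normoxia libraries. With TMM scaling, where 1.18% of all tested genes were higher and 1.2% lower, 1 principal cell gene was higher, and 2 leukocyte, 3 fibroblast and pericyte and 2 injured tubule genes were lower. With TMM scaling without normoxia library 5, where 4.38% were higher and 4.15% lower, 3 principal cell, 2 intercalated cell and 5 proximal tubule genes were higher. In that setting 3 leukocyte, 4 fibroblast and pericyte and 6 injured tubule genes were lower. Medians were -1.52 for leukocytes and -2.07 for fibroblasts and pericytes, with summed FPKM of 4.07 to 16.6 against 19.4 to 65.3 and of 23.9 to 57.1 against 104.7 to 320.8. The part of these markers in the Egf values was not tested.

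None of the 10 genes with the pattern most like Egf was in the lists of its segments. Likeness was the root mean square difference of log2(FPKM + 0.5) over the 8 libraries, after centring each gene on its mean. The median over 14443 genes was 2.27. The closest gene was Mettl7a2, a methyltransferase-like gene, at 0.605, followed by the organic anion transporter gene Slc22a19 (0.844), the cytochrome P450 gene Cyp2j11 (0.916), the peroxisomal bifunctional enzyme gene Ehhadh (0.937) and the lysine breakdown gene Aass (0.959). The next were the fatty acid desaturase gene Scd1 (0.963), the glycosyltransferase genes Ugt3a1 (0.965) and Ugt3a2 (0.971), the glutathione peroxidase gene Gpx6 (0.985) and Akr1c14 (0.999), an aldo-keto reductase gene. Tmem207, Ppp1r1b, Calb1 and Slc12a1 ranked 13, 14, 15 and 19, and Gm24515, Gm42697 and Gm42650 ranked 17, 18 and 45. Umod ranked 672. The measure rewards a like size of difference as well as a like order of libraries, and all genes share the same 8 libraries. It is a description, and with TMM scaling the first 5 genes had the same ranks.

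**Figure D5:**
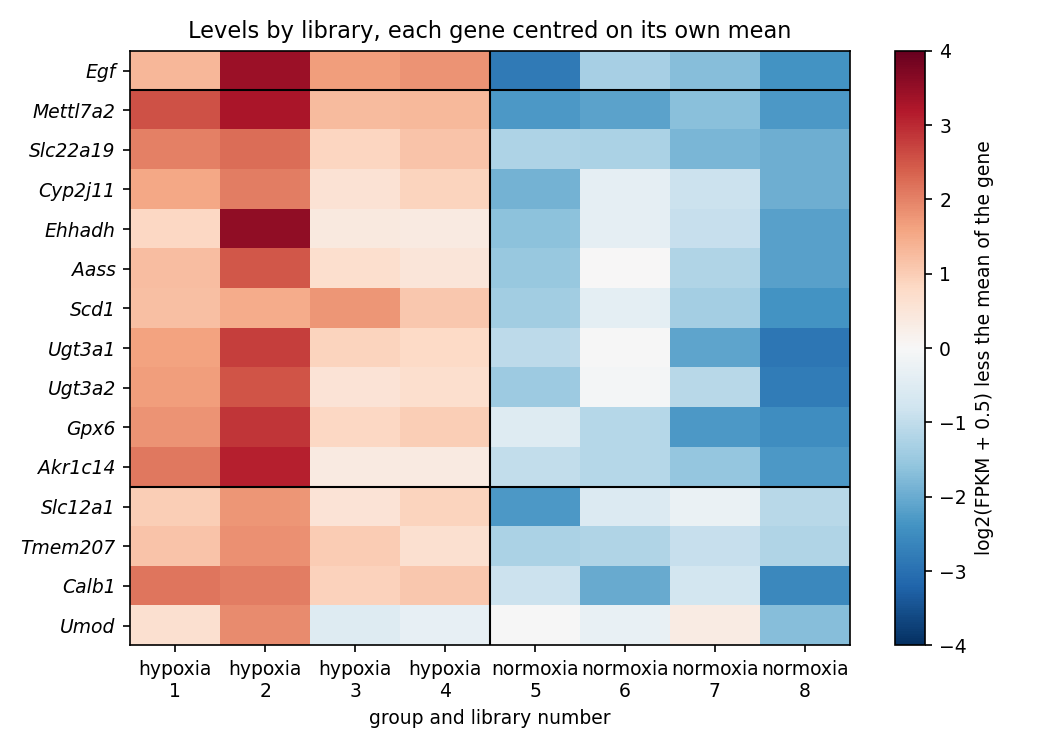
Levels as log2(FPKM + 0.5) in the 8 libraries, each gene centred on its mean, for Egf (top), the 10 genes most like it and 4 segment genes (bottom). The 10 genes are above their mean in all 4 hypoxia libraries, as Egf is, while Umod is not.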

How the data were processed

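The authors deposited FPKM per gene and library, per the file headers, from poly(A) TruSeq stranded libraries, per the labels' protocols. The tools listed, per the submitters' processing notes, are HISAT2, edgeR and StringTie, without roles or versions, with build and annotation not given in the sources used here. All 34450 Ensembl identifiers matched GENCODE M21 (GRCm38). The columns after the FPKM values were empty.

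FPKM was tested as log2(FPKM + 0.5), which understates changes of low genes, in the 14444 genes with a mean of at least 0.5 FPKM. The fit was limma 3.58.1 in R 4.3.3 (eBayes with trend, two-sided, no further scaling, 4 against 4 libraries), with Benjamini-Hochberg adjustment over all tested genes and a threshold of 0.05, and it was tested on simulated data. TMM factors (trims of 30% and 5%) were computed from the published formula as a scaling only. Depth came from the commonest spacing of FPKM times length in single-exon genes, and the ribosomal share from FPKM times exon length. The transcripts and gene lists were chosen with earlier results of these data known. Named genes were list members past the threshold, or the 2 with the smallest p, the 5 nearest tested genes on each side of Egf, 6 fixed genes, and the 10 most like Egf. Not all are printed. No protein sequence of Egf was used here.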

Additional observations from a re-analysis of the deposited data

Results flagged for a closer look

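In 104 groups of 4 libraries, for 52 genes, the gap between the highest or lowest library and its neighbour was set against the range of the group. In 8 groups it passed Dixon's 95% critical value for 4 samples. Chance alone marks about 5% of groups where values are normally distributed and groups are independent. These groups share the same 8 libraries, so 5% is not an exact baseline for them. Egf was 142.4 FPKM in hypoxia library 2, against 32.97 to 45.9 FPKM in the other hypoxia libraries. After TMM scaling it was 104.5 in library 2, against 27.3 to 67.8 in the others. Hypoxia library 2 also stood apart as deposited for Ehhadh (253.2 FPKM against 27.1 to 38.1) and Trpm6 (1.98 FPKM against 0.92 to 1.08). It did so too for Podxl, a podocyte gene (26.6 FPKM against 16.0 to 17.2). Normoxia library 7 stood apart for the collagen gene Col1a1 (91.5 FPKM against 26.8 to 34.6), Krt20 (40.0 FPKM against 10.4 to 14.8) and Rhbdl2 (1.67 FPKM against 0.38 to 0.48). Normoxia library 5 was the only normoxia library with Pvalb above 0 (1.42 FPKM). The gaps were taken from FPKM as deposited, without scaling between libraries. The divisor of TMM scaling was 1.363 in hypoxia library 2, against 0.657 to 1.207 in the other hypoxia libraries. It was 1.838 in normoxia library 7, against 0.810 to 1.004 in the other normoxia libraries. A scale shared by all genes of a library may therefore enter these gaps, and its part was not tested.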

How the results depend on the processing

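The Egf difference of 4.12 kept its direction and moved by less than the spread within groups under every alternative run, from 3.90 (common sum over protein-coding genes) to 4.34 (quantile normalization), and from 3.67 to 4.36 with a library left out. For transcripts listed at 0 after normoxia the pseudocount sets the difference. It was 3.08 for Gm24515 and 2.37 for Gm42650, and became 5.24 and 4.44 with a pseudocount of 0.1, and 2.26 and 1.63 with 1. With a library left out it was 2.67 to 3.32 and 2.19 to 2.54.

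The counts of all genes higher and lower, 44 and 87, became 0 and 0 without a filter, 170 and 173 with TMM scaling, 280 and 349 with quantile normalization, 633 and 599 with TMM scaling without normoxia library 5, 17 and 8 with untrended variance, and 74 and 201 at an adjusted p of 0.10. Genes lower were also 47 with a pseudocount of 1 and 177 with a common sum over protein-coding genes. With a library left out they ranged from 11 to 66 and from 5 to 226.

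Of the thick ascending limb list 3 genes were higher, and 0 without a filter, 1 with a filter of 2 FPKM, 6 with TMM scaling, 5 with quantile normalization, 6 with TMM scaling without normoxia library 5, 1 with untrended variance and 1 to 3 with a library left out. Of the distal convoluted and connecting tubule list 2 were higher, and 0 without a filter, 4 with quantile normalization, 8 with TMM scaling without normoxia library 5 and 1 to 2 with a library left out. In the magnesium list 1 was higher with TMM scaling, 1 with quantile normalization and 2 with TMM scaling without normoxia library 5. Near Egf 0 were higher without a filter or with a common sum over protein-coding genes, and 2 with TMM scaling without normoxia library 5 or at an adjusted p of 0.10. The cause of these changes was not tested. No paired analysis was possible because the groups share no replicate number.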

Other observations

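Among all rows, 34 were listed at 0 in all 4 normoxia libraries and above 0 in all 4 hypoxia libraries, and 40 rows showed the opposite. Of the former, 2 were above 1 FPKM in every hypoxia library, and these were Gm42650 and Gm24515. Of the rows with the opposite pattern, 1 was above 1 FPKM in every normoxia library. These patterns were looked for after the values were seen, and the first describes Gm42650 and Gm24515 by the same values for which they were chosen. Errfi1, the gene of a feedback inhibitor of EGFR, was the most abundant gene of the receptor signalling list, at 51.0, 147.3, 47.1 and 51.0 FPKM in hypoxia libraries 1 to 4 and 18.2, 58.9, 63.1 and 26.7 FPKM in normoxia libraries 5 to 8. The groups overlapped and the difference did not pass (log2 difference 0.82, limma adjusted p = 0.918). As for Egf, its highest value was in hypoxia library 2.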
